A study of Mus musculus with 35 samples.

Results

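Chitinases and chitinase-like proteins are members of a shared glycoside hydrolase family, and their messenger RNA was followed in whole lung of male mice that breathed styrene vapour. A list of 7 mouse genes was chosen by symbol: Chil1, Chil3, Chil4, Chia1, Chit1, Chid1 and Ctbs. For each gene, every probe set that the platform annotation pairs with exactly that symbol was taken, which gave 10 probe sets for 6 of the 7 genes. Chit1, chitotriosidase, had no such probe set and was not analysed here. The 6 genes stand among 17097 genes and their 10 probe sets among 28898 probe sets with 1 symbol. The list was put forward with the differences of Chil4 and Chil3 between 40 or 120 ppm and air already known, so all comparisons with air are given as descriptions with no test.

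Chitin is a polymer of N-acetylglucosamine found in insects, mites and fungi, and mammals do not make it. Mice keep active chitinases, chitotriosidase (Chit1) and the acidic mammalian chitinase Chia1, which digests inhaled chitin in the airways. Their relatives Chil1, Chil3 and Chil4 keep the fold but have lost the catalytic acid, and act as secreted lectins. Chil3 (Ym1) is a product of mouse alveolar macrophages and a classical marker of macrophages exposed to interleukin-4 or interleukin-13, Chil4 (Ym2) is induced in allergic mouse airways, and Chil1 (BRP-39, the counterpart of human YKL-40) is secreted by macrophages and epithelium. Chid1, a chitinase domain protein, and Ctbs, the lysosomal di-N-acetylchitobiase that trims the sugar core of degraded glycoproteins, are more distant members.

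The mice were adult males of the outbred CD-1 stock, and each gave whole lung for 1 array. The 7 groups of 5 mice breathed clean air or styrene at 1, 5, 10, 20, 40 or 120 ppm, and all were killed on the morning after the last exposure. The labels disagree on the length of exposure: the protocol and sample titles give 6 h on 1 day, and the sample characteristics give 5 days. Values are log2 expression as deposited, 1 unit being a doubling. In whole lung, fewer cells of a type and less RNA per cell cannot be told apart.

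The arrays fell into 2 sets by the spread of their values. The interquartile range of an array's values was 3.28 to 3.54 log2 on the 25 arrays of 5 to 120 ppm and 2.66 to 3.16 log2 on the 10 arrays of air and 1 ppm. No batch or date in the labels goes with this, so an array-wide difference and exposure cannot be told apart in any comparison across the 2 sets. Most genes differed between them, so counts of members are given beside the share of all genes called. The lung label was borne out by Sftpc, Scgb1a1, Ager and Hopx, which averaged 13.8, 13.8, 13.5 and 12.9 log2 over 35 arrays, while the fibroblast gene Col1a2 averaged 3.84 log2, at the 27.5th percentile of genes.

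Chia1, Chil3 and Chil4 lie side by side on mouse chromosome 3. On build GRCm38.p6, Chia1 spans chr3:106113382-106132118 on the forward strand, Chil3 chr3:106147554-106167564 and Chil4 chr3:106201491-106219479, both on the reverse strand. A stretch of 15435 bases separates Chia1 from Chil3, and 33926 separate Chil3 from Chil4. Ctbs is far along the same chromosome at chr3:146450449-146465849, Chil1 lies at chr1:134182156-134190031 and Chid1 at chr7:141493136-141539905. The promoters of the 3 neighbours are shown because the Chil3 probe set and the brighter Chil4 probe set moved together. Chia1, beside them on the chromosome, did not pass the test. The dimmer Chil4 probe set did not follow Chil3. Which messenger the brighter Chil4 probe set reads was not tested, so its assignment to Chil4 is uncertain. Each promoter runs 5′ to 3′ along the gene's strand, with the letters TATAAAA in capitals. It spans from 250 bases before to 25 bases after the start annotated by RefSeq.

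Chil3: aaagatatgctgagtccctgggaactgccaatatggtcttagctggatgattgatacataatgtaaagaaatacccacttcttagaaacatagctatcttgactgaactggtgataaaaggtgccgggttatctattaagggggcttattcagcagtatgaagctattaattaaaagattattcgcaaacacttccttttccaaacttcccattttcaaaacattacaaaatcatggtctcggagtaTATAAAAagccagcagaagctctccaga
Chil4: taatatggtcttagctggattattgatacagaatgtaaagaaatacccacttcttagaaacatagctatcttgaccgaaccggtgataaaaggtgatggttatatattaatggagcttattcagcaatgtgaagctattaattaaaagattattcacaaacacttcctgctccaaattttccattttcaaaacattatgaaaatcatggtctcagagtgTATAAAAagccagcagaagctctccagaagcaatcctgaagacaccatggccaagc
Chia1: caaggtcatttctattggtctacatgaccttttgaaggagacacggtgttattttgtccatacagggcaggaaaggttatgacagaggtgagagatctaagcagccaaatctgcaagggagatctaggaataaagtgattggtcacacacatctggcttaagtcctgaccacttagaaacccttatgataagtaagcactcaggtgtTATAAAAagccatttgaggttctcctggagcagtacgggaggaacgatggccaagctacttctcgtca

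The Chil3 and Chil4 windows cover chr3:106167540-106167814 and chr3:106219455-106219729, and that of Chia1 covers chr3:106113132-106113406. Aligned over 246 bases, Chil3 and Chil4 were identical at 226, or 91.9%, whereas Chil4 and Chia1 were identical at 64.3% of 255 aligned bases. Chil3 and Chia1 were identical at 59.8% of 224 aligned bases. The window of Chil1, on another chromosome, reached 56.8%, 58% and 58.1% with Chil3, Chil4 and Chia1. The letters TATAAAA occur once in each window, first base at -3 in Chil3, -31 in Chil4 and -43 in Chia1 counted from the annotated start. Searched on both strands, TATAAAA was found in 5.26% of 32851 RefSeq promoter windows of this length. TTCNNNNGAA, a pattern of STAT6, the factor downstream of interleukin-4 and interleukin-13, was in 6.39% of the windows and in none of these 3. Only this spacing of TTC and GAA was counted. The Chil3 and Chil4 windows each hold ttcttagaa, a shorter spacing that was not searched for. A match is a description of letters and says nothing of binding.

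Chil3 was higher in every mouse exposed to 5 ppm or more than in every mouse at 1 ppm or in air. Its only probe set, 1419764_PM_at, read 10.59, 10.93, 11.12, 10.24 and 10.81 log2 in the 5 air mice and 10.59, 10.30, 10.44, 10.44 and 11.30 log2 at 1 ppm. At 5 ppm it read 12.14, 11.90, 12.02, 11.74 and 12.22 log2, and at 10 ppm 11.49, 12.02, 12.17, 11.73 and 11.93 log2. These groups do not overlap the first 2, even though the highest 1 ppm mouse came within 0.19 log2 of the lowest exposed mouse. At 20 ppm Chil3 read 11.94, 11.82, 11.58, 12.21 and 11.95 log2, at 40 ppm 11.90, 11.98, 11.83, 11.81 and 11.90 log2 and at 120 ppm 12.17, 11.98, 12.25, 12.34 and 12.11 log2. The level thus stepped up between 1 and 5 ppm and lay on a plateau above it, with the 120 ppm mean the highest.

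Chil4 was read by 2 probe sets that do not give the same picture. The brighter, 1425451_PM_s_at, read 8.74, 9.68, 9.82, 9.22 and 9.51 log2 in air, 9.55, 9.03, 9.24, 8.92 and 10.44 log2 at 1 ppm and 12.06, 11.90, 12.08, 11.57 and 12.25 log2 at 5 ppm. It continued with 11.22, 11.95, 12.04, 11.59 and 11.77 log2 at 10 ppm, 11.81, 11.70, 11.41, 12.23 and 11.94 log2 at 20 ppm and 11.73, 11.81, 11.61, 11.66 and 11.82 log2 at 40 ppm. At 120 ppm it read 12.14, 11.96, 12.23, 12.40 and 11.97 log2. All 25 mice from 5 ppm up lay at least 0.77 log2 above all 10 others.

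The other Chil4 probe set, 1425450_PM_at, stayed between 3.13 and 4.02 log2 on all 35 arrays, at the 20.3th percentile of probe sets, and its groups overlapped. Its group means lay between 3.49 ± 0.15 log2 at 20 ppm and 3.34 ± 0.14 log2 in air (SD, n = 5 each), and none of its differences in the tested comparisons was called. The difference described for Chil4 therefore rests on 1 of its 2 probe sets. The mean of both contains that probe set, so its calls, given next, are no separate support. With the mean of both, Chil4 differed from 1 ppm by 1.22 log2 at 5 ppm, 1.12 log2 at 10 ppm and 1.20 log2 at 20 ppm, and was called in all 3 (limma adjusted p of 2.97e-10, 3.11e-09 and 9.43e-10).

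**Figure D1:**
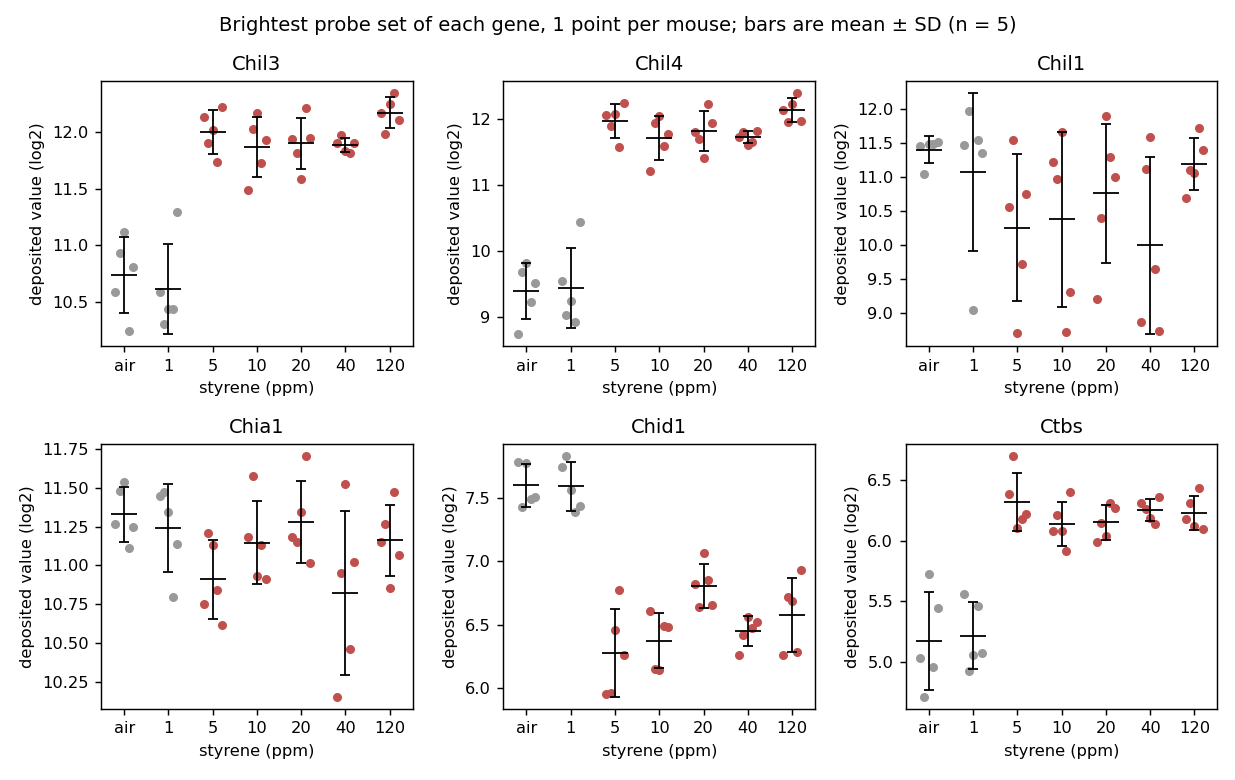
Deposited log2 value (y axis) of the brightest probe set of each gene against styrene in ppm (x axis), 1 point per mouse, grey for air and 1 ppm and red for 5 to 120 ppm, with the mean and SD of 5 mice. Chil3, Chil4 and Ctbs are higher in all 25 mice from 5 ppm up than in the 10 others, Chid1 is lower in all 25, and Chil1 and Chia1 overlap.

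Whether 5, 10 or 20 ppm differed from 1 ppm was tested with limma fitted to all genes and p-values adjusted over all of them. The group means compared come from mice other than the air, 40 and 120 ppm mice whose values drew attention to the list. Those mice still enter the estimate of spread behind each SE and p-value, since all arrays were fitted together. The step between 1 and 5 ppm was already known from earlier results of these data, so the tests are not independent support of it. Chil3 rose 2.62-fold at 5 ppm against 1 ppm, a log2 difference of 1.39 ± 0.16 (SE, n = 5 each, limma adjusted p = 1.17e-09). It averaged 12.00 ± 0.19 log2 at 5 ppm and 10.61 ± 0.40 log2 at 1 ppm (SD). At 10 and 20 ppm its differences from 1 ppm were 1.26 ± 0.16 and 1.29 ± 0.16 log2, with adjusted p-values of 1.52e-08 and 1.09e-08. Chil4, by its brighter probe set, rose 5.80-fold at 5 ppm, from the difference of 2.53 ± 0.21 log2 (limma adjusted p = 1.36e-12). Its group means were 11.97 ± 0.26 log2 at 5 ppm and 9.44 ± 0.61 log2 at 1 ppm. The differences at 10 and 20 ppm were 2.28 ± 0.21 and 2.38 ± 0.21 log2. These 3 comparisons share the 1 ppm mice, so they are not independent of each other.

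In all, 4 of the 6 members were called at each of these concentrations, 3 higher and 1 lower. Of all genes, 79.6% were called at 5 ppm, 70.8% at 10 ppm and 68.0% at 20 ppm against 1 ppm, so a count of 4 in 6 is near the background and is no result about the family. The median difference of all genes was -0.23, -0.14 and -0.10 log2 in the 3 comparisons, and that of the members 0.39, 0.41 and 0.49 log2. All 4 calls were lost when the interquartile range of each array entered the fit. Chil4 then differed from 1 ppm by 0.96 log2 at 5 ppm, 0.91 log2 at 10 ppm and 1.06 log2 at 20 ppm, with limma adjusted p-values of 0.222, 0.216 and 0.121. Chil3 differed by 0.28, 0.29 and 0.35 log2 (adjusted p = 0.687, 0.65 and 0.55), Ctbs by 0.71, 0.58 and 0.60 log2 and Chid1 by -0.71, -0.69 and -0.28 log2. These values are extrapolated, since the groups compared share no range of it.

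Among 5, 10 and 20 ppm no difference of Chil3 or Chil4 passed the test. At 5 ppm, compared with the mean of 10 and 20 ppm, Chil3 differed by 0.12 ± 0.14 log2 and Chil4 by 0.21 ± 0.18 log2 (SE, limma adjusted p = 0.515 and 0.39). At 20 against 10 ppm the differences were 0.03 ± 0.16 log2 for Chil3 and 0.10 ± 0.21 log2 for Chil4, with adjusted p-values of 0.983 and 0.936. A p that misses the threshold does not show that the levels were equal. In the comparison of 5 ppm with 10 and 20 ppm, 40.8% of all genes were called and 1 of the 6 members, Chid1. In that of 20 with 10 ppm limma called 0 of 17097 genes, 0% of them, while 1589 genes had an unadjusted p under 0.05, and up to 3 genes were called under other settings.

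**Figure D2:**
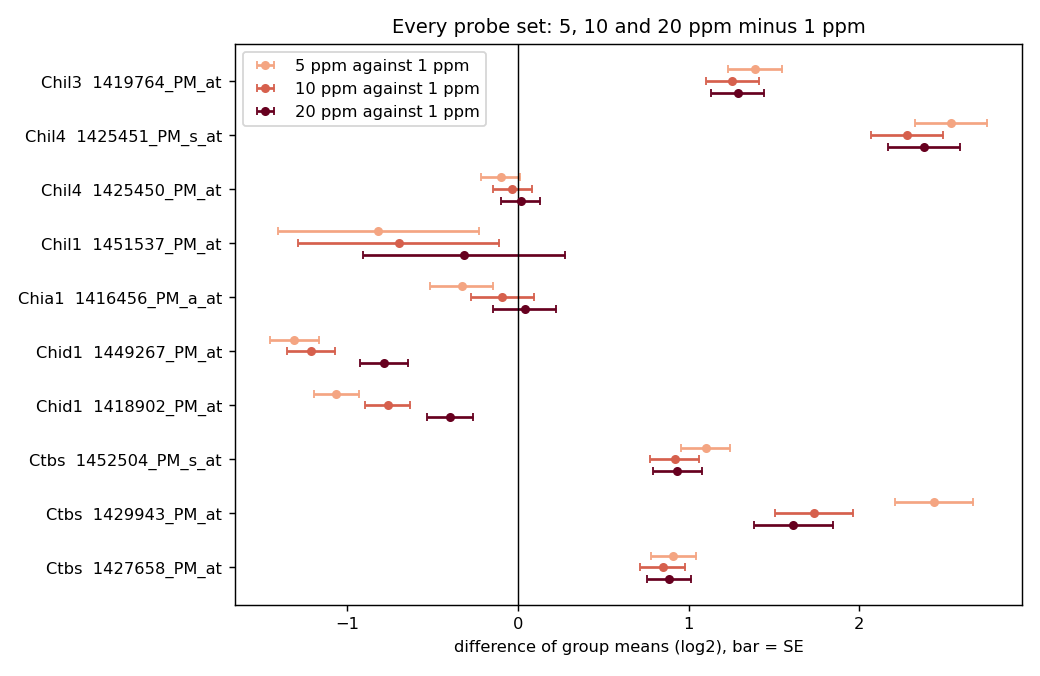
Difference of group means on the log2 scale with its SE (x axis) for each of the 10 probe sets (y axis) at 5, 10 and 20 ppm minus 1 ppm. The brighter Chil4 probe set lies between 2.28 and 2.53 log2 and the dimmer between -0.10 and 0.02 log2, and the probe sets of Chid1 and of Ctbs each keep 1 direction.

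The brighter Chil4 probe set followed Chil3 from mouse to mouse. Over 35 arrays their values had a Pearson r of 0.984, a value that includes the step between 1 and 5 ppm. After each group's mean was removed r was 0.907, with 0.976 over the 25 arrays of 5 to 120 ppm and 0.867 over the 10 of air and 1 ppm. No other gene of 17096 came closer to either of them in these deviations. In contrast, the dimmer Chil4 probe set had r of 0.07 with Chil3 over 35 arrays. The mouse that was highest for Chil3 at 1 ppm, replicate 5, was also highest for the brighter Chil4 probe set, at 11.30 and 10.44 log2 where the other 1 ppm mice read at most 10.59 and 9.55 log2. Chil3 and Chil4 are near-identical paralogs, and an Affymetrix name ending in s_at marks probes that can bind more than 1 transcript, so which of the 2 messengers 1425451_PM_s_at reads was not tested and its assignment to Chil4 is uncertain.

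**Figure D3:**
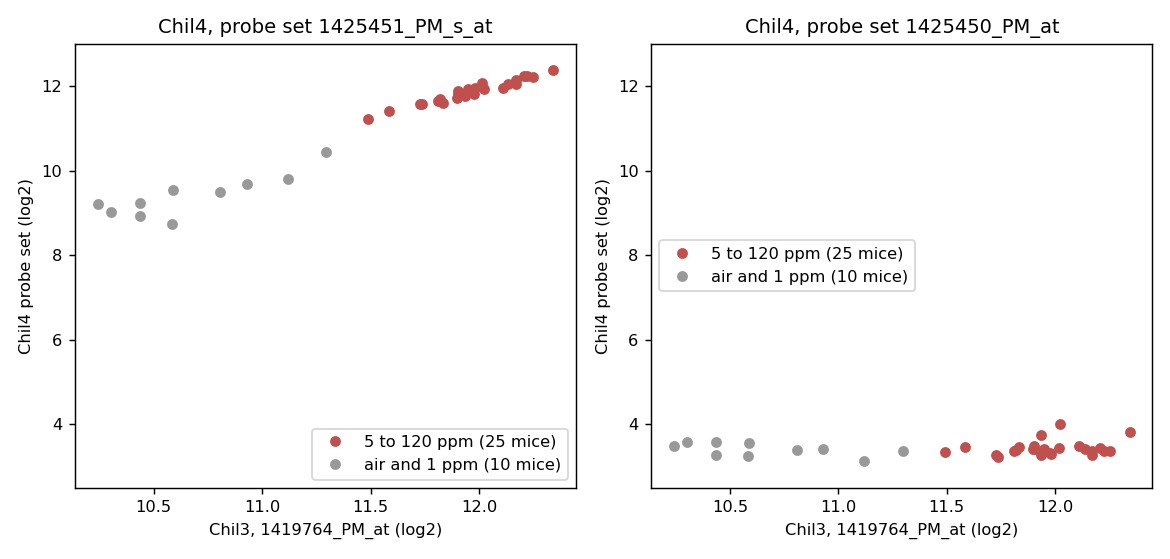
Log2 values of the 2 Chil4 probe sets (y axes, 1425451_PM_s_at left and 1425450_PM_at right) against Chil3 (x axis, log2) on 35 arrays, red for 5 to 120 ppm and grey for air and 1 ppm. The left probe set climbs along with Chil3 (r = 0.984) within as well as between the array sets, and the right stays at 3.13 to 4.02 log2.

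Genes outside the family also shared this step. Those most like Chil4 over 35 arrays, after Chil3, were Etfa, the alpha chain of electron transfer flavoprotein, Aifm1, a mitochondrial flavoprotein, Erp44, a chaperone of the secretory pathway, and Myof, myoferlin, with r between 0.974 and 0.975. Those most like Chil3, after Chil4, were Kdm1b, a histone demethylase, Myof, the protease Ufsp2 and Atl3, an atlastin of the endoplasmic reticulum, with r between 0.956 and 0.961. A high r is common here: 1739 genes, or 10.2%, had r above 0.9 with Chil4 and 1169, or 6.84%, with Chil3. The arrays share the 2 sets described above, which any gene with a step follows.

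Relative to air, the differences of the brightest probe sets are given as descriptions. For Chil4 they were 0.04 log2 at 1 ppm, 2.58 at 5 ppm, 2.32 at 10 ppm, 2.42 at 20 ppm, 2.33 at 40 ppm and 2.74 at 120 ppm, each with an SE of 0.21. For Chil3 they were -0.12, 1.26, 1.13, 1.16, 1.15 and 1.43 log2 in the same order, each with an SE of 0.16. The order of the Chil4 means was 120, 5, 20, 40, 10 and 1 ppm and then air, and neighbours within the 5 to 120 ppm set lay within the spread between mice. Between 120 and 40 ppm the difference was 0.41 log2 for Chil4 and 0.29 log2 for Chil3, and at 120 ppm the lowest Chil4 mouse, 11.96 log2, was above the highest at 40 ppm, 11.82 log2. At 40 ppm against air 6 of 6 members were past the threshold, where 64.8% of all genes were, and at 120 ppm against air 4 of 6, where 68.9% were; since these groups drew attention to the list, nothing is read from the counts.

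Chil1 did not follow Chil3 and Chil4, and varied more between mice of a group than nearly any other gene. Its only probe set, 1451537_PM_at, read 11.46, 11.05, 11.48, 11.49 and 11.52 log2 in air, and 11.47, 11.97, 9.05, 11.54 and 11.35 log2 at 1 ppm. At 5 ppm it read 10.57, 11.54, 8.71, 9.72 and 10.76 log2 and at 10 ppm 11.22, 10.97, 11.66, 8.73 and 9.32 log2. The same wide scatter held at 20 ppm, with 9.21, 10.40, 11.89, 11.30 and 11.004 log2, and at 40 ppm, with 8.88, 11.13, 11.60, 9.66 and 8.74 log2. At 120 ppm the mice stayed together again, at 10.69, 11.11, 11.06, 11.72 and 11.39 log2. The groups overlap, and every mouse in air and at 120 ppm is above 10 log2.

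The SD of Chil1 within groups was 1.00 log2, at the 99.7th percentile of genes, where the median gene had 0.21 log2. Low mice can be counted: 9 of 35 read below 10 log2, a limit set after the values were seen, and the highest of these, 9.72 log2, lies apart from the next mouse at 10.40 log2. They were 0 of 5 in air, 1 at 1 ppm, 2 at 5 ppm, 2 at 10 ppm, 1 at 20 ppm, 3 at 40 ppm and 0 of 5 at 120 ppm. The differences from 1 ppm were -0.82 ± 0.59 log2 at 5 ppm, -0.70 ± 0.59 log2 at 10 ppm and -0.32 ± 0.59 log2 at 20 ppm (SE), with limma adjusted p-values of 0.202, 0.291 and 0.647, so none was called. Without 1 ppm mouse 3, the low mouse of that group, the difference at 5 ppm was -1.32 log2 and passed the test (limma adjusted p = 0.038), and without 20 ppm mouse 1 that at 20 ppm was 0.07 log2. In description, Chil1 differed from air by -1.40 log2 at 40 ppm and by -0.20 log2 at 120 ppm.

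The deviations of Chil1 from its group means had r of 0.06 with Chil3, 0.02 with the brighter Chil4 probe set and 0.29 with Chia1 over 35 arrays. With Chia1 r was 0.38 over the 25 arrays of 5 to 120 ppm and -0.14 over the 10 of air and 1 ppm, and with the 3 Ctbs probe sets it was 0.22, 0.28 and 0.13 over 35 arrays. Of all genes, B130055M24Rik came closest in deviations, with r of 0.679, and Fam228a in the values themselves, with 0.561. The messenger RNAs of proteins reported to bind Chil1 or to share its receptors were measured too. Of these 5 genes, Cd44, the hyaluronan receptor, rose at 20 ppm against 1 ppm by 0.69 ± 0.12 log2 (SE, limma adjusted p = 6.54e-06). Tmem219, Il13ra2, a decoy receptor of interleukin-13 that the type 2 list also holds, Ptgdr2, a prostaglandin D2 receptor, and Lgals3, galectin-3, fell, Tmem219 by 1.07 ± 0.15 log2 with an adjusted p of 1.19e-07. The list was called 1 higher and 4 lower at 5, 10 and 20 ppm against 1 ppm, with a median of -0.64 log2 at 20 ppm, where 31.1%, 31.2% and 31.9% of all genes were higher and 48.5%, 39.5% and 36.1% lower.

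Chia1, the active acidic chitinase, lies beside Chil3 and Chil4 on the chromosome, and none of its differences in the tested comparisons passed the test. Its probe set, 1416456_PM_a_at, averaged 11.33 ± 0.18 log2 in air, 11.24 ± 0.28 at 1 ppm, 10.91 ± 0.25 at 5 ppm, 11.15 ± 0.27 at 10 ppm, 11.28 ± 0.27 at 20 ppm, 10.82 ± 0.53 at 40 ppm and 11.16 ± 0.23 at 120 ppm (SD, n = 5 each). The groups overlap throughout, and the widest spread, at 40 ppm, covers 10.15 to 11.53 log2. Against 1 ppm its differences were -0.33 ± 0.18 log2 at 5 ppm, -0.09 ± 0.18 at 10 ppm and 0.04 ± 0.18 at 20 ppm (SE), with limma adjusted p-values of 0.100, 0.658 and 0.859. None was called, and the sign at 20 ppm turned to -0.01 log2 after quantile normalization and -0.04 log2 with arrays centred on their medians. With centring, the 5 ppm difference became -0.46 log2 and passed the test (adjusted p = 0.0246), while the median of all genes itself moved by -0.13 log2. It also passed without 1 ppm mouse 4, at -0.44 log2 with an adjusted p of 0.035. In description, Chia1 differed from air by -0.09 log2 at 1 ppm, -0.42 at 5 ppm, -0.18 at 10 ppm, -0.05 at 20 ppm, -0.51 at 40 ppm and -0.17 at 120 ppm, each with an SE of 0.18.

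Within groups Chia1 had r of 0.06 with Chil3 and 0.11 with the brighter Chil4 probe set. The genes most like Chia1 over 35 arrays were Grik1, a glutamate receptor subunit, Pla2g1b, a secreted phospholipase, Slc22a14, Ltc4s, which makes leukotriene C4, and the zinc transporter Slc39a2, with r between 0.560 and 0.611. These are weak, and no gene had r above 0.9 with Chia1.

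Chid1 was the member that fell. By its brighter probe set, 1449267_PM_at, it read 7.78, 7.43, 7.77, 7.49 and 7.51 log2 in air, 7.74, 7.83, 7.56, 7.38 and 7.43 log2 at 1 ppm and 5.95, 5.96, 6.45, 6.77 and 6.26 log2 at 5 ppm. At 10 ppm it read 6.61, 6.15, 6.14, 6.49 and 6.48 log2, at 20 ppm 6.82, 6.64, 7.07, 6.85 and 6.65 log2 and at 40 ppm 6.26, 6.42, 6.56, 6.48 and 6.52 log2. The 120 ppm mice read 6.26, 6.72, 6.69, 6.29 and 6.93 log2. All 25 mice from 5 ppm up lay below all 10 others, with the 5 ppm mean lowest and the 20 ppm mean nearest to air.

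At 5 ppm Chid1 averaged 6.28 ± 0.35 log2, and 7.59 ± 0.19 log2 at 1 ppm (SD, n = 5 each), a difference of -1.31 ± 0.14 log2 (SE, limma adjusted p = 4.56e-10). The differences from 1 ppm were -1.21 log2 at 10 ppm and -0.78 log2 at 20 ppm, with adjusted p-values of 3.88e-09 and 1.16e-05. Chid1 was the only member called at 5 ppm against 10 and 20 ppm, by -0.31 ± 0.12 log2 (SE, limma adjusted p = 0.0407). That call was lost on leaving out any of 9 of the 15 mice, with adjusted p up to 0.166, and in a fit of the 3 groups alone, with 0.0625. Its second probe set, 1418902_PM_at, differed in the same comparison by -0.48 ± 0.12 log2 (adjusted p over probe sets = 0.00116) and from 1 ppm by -1.06, -0.76 and -0.40 log2 at 5, 10 and 20 ppm. On this second probe set the 5 to 120 ppm mice overlapped the others. They read up to 6.40 log2, and the air and 1 ppm mice down to 6.12 log2. The 2 Chid1 probe sets thus kept the same direction, and within groups they had r of 0.458. That r was 0.679 over the 25 arrays of 5 to 120 ppm and -0.165 over the 10 of air and 1 ppm.

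Ctbs rose on all 3 of its probe sets. The name of the brightest ends in s_at, as does that of the brighter Chil4 probe set, and which transcripts it reads was not tested. The brightest, 1452504_PM_s_at, averaged 5.18 ± 0.40 log2 in air, 5.22 ± 0.28 at 1 ppm, 6.32 ± 0.24 at 5 ppm, 6.14 ± 0.18 at 10 ppm, 6.15 ± 0.14 at 20 ppm, 6.25 ± 0.09 at 40 ppm and 6.23 ± 0.14 at 120 ppm (SD, n = 5 each). Against 1 ppm it differed by 1.10 ± 0.14 log2 at 5 ppm, 0.92 ± 0.14 at 10 ppm and 0.93 ± 0.14 at 20 ppm (SE), with limma adjusted p-values of 2.72e-08, 1.10e-06 and 9.45e-07. On each of the 3 probe sets all 25 mice from 5 ppm up lay above the 10 others, with gaps of 0.19, 0.10 and 0.05 log2. The sizes disagree: 1429943_PM_at differed from 1 ppm by 2.44 log2 at 5 ppm, 1.73 at 10 ppm and 1.61 at 20 ppm, and 1427658_PM_at by 0.91, 0.85 and 0.89 log2. For 1429943_PM_at alone, 5 ppm was also higher than 10 and 20 ppm, by 0.76 ± 0.20 log2 (SE, adjusted p over probe sets = 0.00258).

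By brightest probe sets, groups that do not overlap in this way, 25 arrays against 10, were found for 4 of 6 members, 3 above and 1 below. Among all genes 29.5% did not overlap either, 15.1% above and 14.4% below, so the pattern is widespread on these arrays.

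Genes related to the family by role were counted from lists. Of all genes, 31.1% were called higher and 48.5% lower at 5 ppm against 1 ppm, 31.2% and 39.5% at 10 ppm and 31.9% and 36.1% at 20 ppm, with medians of -0.23, -0.14 and -0.10 log2. With the array interquartile range as a covariate most of the list calls were lost, as were most of those of all genes. Ctbs works with other lysosomal glycosidases. The list drawn up for them is broader, since it also holds the peptidase Ctsa, the cytosolic enzyme Engase and the amidase Aga. Of its 15 genes 10 were measured. At 20 ppm 2 were called higher and 7 lower, Ctsa by -0.45 log2 and Engase by -0.44 log2 among the lower. At 5 and at 10 ppm 2 were higher and 8 lower. The medians were -0.93, -0.59 and -0.53 log2 from 5 to 20 ppm. Aga, which splits the sugar from asparagine, and Manba, beta-mannosidase, rose with Ctbs, by 1.504 ± 0.12 and 1.48 ± 0.24 log2 at 20 ppm (limma adjusted p = 1.88e-12 and 2.26e-06). Naglu, which removes N-acetylglucosamine from heparan sulfate, and Hexa, the hexosaminidase alpha chain, fell by 1.40 ± 0.12 and 0.83 ± 0.09 log2 (adjusted p = 7.48e-12 and 1.02e-09). Of 3 further relatives of the family listed, only Ovgp1, oviductin, was measured, and it was not called, with a difference of 0.07 log2 at 20 ppm.

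The type 2 response, driven by interleukin-4 and interleukin-13, is the textbook inducer of Chil3, Chil4 and Chia1. All 28 genes of that list were measured, with 7 higher and 12 lower at 5 ppm, 7 and 9 at 10 ppm and 8 and 8 at 20 ppm against 1 ppm, and a median of -0.10 log2 at 20 ppm. These counts are near the shares of all genes. At 20 ppm Il13ra1, a receptor chain for interleukin-13, rose by 2.23 ± 0.18 log2, Retnla, a macrophage product of this response, by 1.93 ± 0.33 log2 and the alarmin Il33 by 1.56 ± 0.26 log2 (limma adjusted p = 2.91e-12, 6.58e-06 and 3.52e-06). Il4ra, the receptor chain shared by interleukin-4 and interleukin-13, fell by 1.54 ± 0.19 log2 (adjusted p = 1.63e-08). Il4, Il5 and Stat6 were also called lower at 20 ppm, with differences of -0.52, -0.62 and -0.35 log2 (limma adjusted p = 0.0021, 0.00068 and 0.0017). Il13 differed by -0.25 log2 there and was not called.

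Markers of alveolar macrophages, the cells known to make Chil3, were called in part. Of 12 listed, 9 were measured, with 4 higher and 1 lower at 5 ppm, 5 and 0 at 10 ppm and 6 and 0 at 20 ppm against 1 ppm, where 31.1%, 31.2% and 31.9% of all genes were higher. The lower one at 5 ppm was Car4, a carbonic anhydrase, which fell by 0.45 log2 (limma adjusted p = 0.000995), and Marco, Krt79, Itgax and Fabp1 were not called there. The rises of the 4 markers with the smallest adjusted p at 20 ppm were 1.48 ± 0.11 log2 for Plet1, 1.41 ± 0.19 log2 for Pparg, the factor that sets alveolar macrophage identity, 1.25 ± 0.18 log2 for Siglecf and 0.97 ± 0.22 log2 for the proton pump subunit Atp6v0d2 (limma adjusted p = 5.22e-13, 6.80e-08, 2.25e-07 and 0.000192). The mean of the 9 markers per mouse was 6.81 to 7.80 log2 in air, 6.92 to 7.54 at 1 ppm, 7.84 to 8.26 at 5 ppm, 7.63 to 8.05 at 10 ppm, 7.76 to 8.45 at 20 ppm, 7.72 to 8.09 at 40 ppm and 7.81 to 8.36 at 120 ppm. The part of these cells in the Chil3 and Chil4 differences was not tested.

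Other cell types that can make family members gave these counts at 20 ppm against 1 ppm, where 31.9% of all genes were higher and 36.1% lower. Of 15 neutrophil markers measured of 17, 1 was higher, Lcn2, by 0.86 log2, and 3 lower, Camp, Elane and Ngp, by -0.95, -0.30 and -1.16 log2. Their mean per mouse was 5.48 to 6.21 log2 at 20 ppm and 5.62 to 6.08 log2 at 1 ppm. Of 4 eosinophil markers measured of 5, 0 were higher and 3 lower, among them Prg3 by -0.42 log2 and Prg2 by -0.24 log2. The mean of the 4 stayed between 2.83 and 3.24 log2 on all arrays. That is below the dimmer Chil4 probe set, which averaged 3.43 log2, so little signal is left in which a change could be seen. Nothing is read from these calls about eosinophils. Of 7 club cell markers 4 were higher and 1 lower, with Gabrp at 2.62 log2, Cckar at 0.84 log2 and Upk3a at -0.56 log2. Of 9 alveolar type 2 markers measured of 11, 3 were higher, Cxcl15 by 0.80 log2 and Sftpa1 by 0.29 log2 among them, and 0 lower. At 5 ppm against 1 ppm, 5 neutrophil markers were higher and 5 lower, and 2 alveolar type 2 markers higher and 4 lower. Club cell and eosinophil markers had the same counts there as at 20 ppm. Of all genes, 31.1% were higher and 48.5% lower at 5 ppm.

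**Figure D4:**
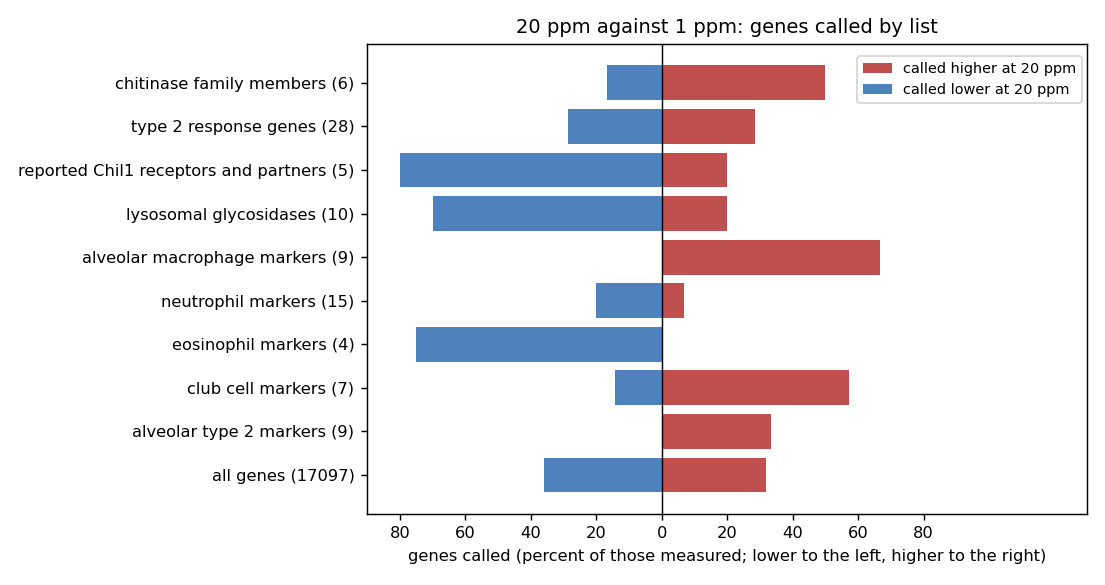
Percent of measured genes called by limma at 20 ppm against 1 ppm (x axis, lower in blue to the left and higher in red to the right) for each list (y axis, number of genes measured in brackets). Among all 17097 genes 31.9% were higher and 36.1% lower, and alveolar macrophage markers were called higher in 6 of 9. Of the lysosomal glycosidase list, which also holds Ctsa, Engase and Aga, 7 of 10 genes were lower.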

How the data were processed

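Whole-lung RNA of 35 mice was labelled with an Affymetrix 3′ kit, per the labels' protocols. The authors deposited log2 values per probe set; RMA and Partek are named in the submitters' processing notes, with no version or role. The members and the gene lists were chosen with earlier results of these data known, in which the same step between 1 and 5 ppm had been seen, so the tests are not independent support of it. Symbols came from the platform annotation: of 45037 probe sets, 28898 had 1 symbol, 551 several and 15588 none. Each of 17097 genes was represented by its brightest probe set over all arrays, with no filter on dim genes.

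A mean per group was fitted to all 35 arrays by lmFit and eBayes (limma 3.58.1, R 4.3.3). Tests were two-sided, p-values were adjusted over all 17097 genes by Benjamini and Hochberg's method and called under 0.05, and SEs come from the same fit. The fit code was tested on simulated data with independent noise and no difference in spread between the 2 array sets. That test therefore does not bear on the difference in spread. Samples were grouped by labelled dose. Each p-value sets a difference of group means against the spread between mice within groups. That spread does not contain the difference between the 2 array sets. Array number limits the precision. Named genes are the members, up to 4 per list with the smallest adjusted p at 20 ppm against 1 ppm among those called one way at 5, 10 and 20 ppm, and the 5 most alike by Pearson r over arrays. Some genes were named after their values were seen. They are the genes likest Chil1 by r, Lgals3, Ovgp1, Car4, Marco, Krt79, Itgax, Fabp1, Ctsa, Engase, Il4, Il5, Il13 and Stat6. Alternatives were the mean of probe sets, quantile normalization, median centring, leaving out genes below the median level, fewer groups, mouse number as a block, array interquartile range as a covariate, another prior, leaving out each mouse and, added after the data were seen, every probe set alone. Same-numbered mice did not deviate together, with median r over their pairs from -0.08 to 0.15, so numbers do not pair mice. Promoter windows are RefSeq's on GRCm38.p6, aligned with biopython 1.88.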

Additional observations from a re-analysis of the deposited data

Results flagged for a closer look

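Of 42 groups of 5 mice, 6 members at 7 concentrations, 3 had a mouse set apart from the other 4 by Dixon's criterion, and chance gives about 1 in 20. Chil1 in air mouse 2 was 11.05 log2, below the next mouse at 11.46 log2, and the other 4 lay within a narrow range. Chil1 in 1 ppm mouse 3 was 9.05 log2, below the next at 11.35 log2. Chil3 in 1 ppm mouse 5 was 11.30 log2, above the next at 10.59 log2, and the same mouse was the highest of its group for the brighter Chil4 probe set.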

How the results depend on the processing

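With the interquartile range of the array as a covariate, 0 members were called at 5, 10 and 20 ppm against 1 ppm and 0 at 5 ppm against 10 and 20 ppm, and 2920, 2077 and 2315 genes were called against 1 ppm, where the fit without it called 13606, 12101 and 11619. The covariate also turned signs: Chia1 at 10 ppm against 1 ppm became 0.043 log2, Chil1 at 20 ppm against 1 ppm 0.32 log2, and Chil3 and Chil4 at 5 ppm against 10 and 20 ppm -0.039 and -0.017 log2. At 5 ppm against 10 and 20 ppm, members called were 2 with the mean of probe sets, 0 in a fit of these groups alone and 0 to 1 on leaving out each mouse. Chia1 at 20 ppm against 1 ppm turned to -0.0079 log2 after quantile normalization and -0.043 log2 with centring, and ran from -0.072 to 0.11 log2 on leaving out each mouse. At 20 against 10 ppm, Ctbs was -0.023 log2 with the mean of probe sets and Chil3 -0.015 log2 after quantile normalization. On leaving out each mouse, Chil1 ran from -0.82 to 0.072 log2 at 20 ppm against 1 ppm and from -0.63 to 0.077 log2 at 5 ppm against 10 and 20 ppm. At 20 against 10 ppm it ran from -0.030 to 0.77 log2, Chil3 from -0.064 to 0.11, Chil4 from -0.020 to 0.21 and Ctbs from -0.043 to 0.081 log2, where 2 genes were called with the mean of probe sets, quantile normalization, dim genes left out or the block, 3 with the covariate and 0 to 1 on leaving out each mouse. With dim genes left out, fewer genes were tested and 7643, 7457 and 7301 were called against 1 ppm. The replicate block left 4 members called against 1 ppm at each concentration, 1 at 5 ppm against 10 and 20 ppm and 0 at 20 against 10 ppm, and changed no member's call. Of 240 member differences under the other settings 216 kept their direction and side of the threshold, as did 304 of 330 with a mouse left out. Counts of list genes stayed within 1.5 times in 337 of 400 settings, 48 of the rest being lower. The 337 include counts of 0 that stayed 0. At 20 against 10 ppm, 0 genes of any list were called in the fit described above. The share that stayed thus overstates how stable the list calls were. With the covariate 22 of 50 stayed, counts of 0 among them, and 27 were lower. Against 1 ppm at 5, 10 and 20 ppm, 2, 1 and 2 type 2 genes and 5, 2 and 2 genes of the lysosomal glycosidase list were called. So were 1, 1 and 1 alveolar macrophage markers and 1, 0 and 0 genes of the Chil1 receptor list. Against air, Chil4 by the mean of its probe sets differed by 1.31, 1.21, 1.29, 1.21 and 1.44 log2 from 5 to 120 ppm, and by 1.48, 1.42, 1.57, 1.43 and 1.80 log2 with the covariate, where Chil3 differed by 0.49, 0.50, 0.56, 0.52 and 0.77 log2. Where no construction shows it, the cause was not tested. Centring moved the median of all genes by -0.13 log2 at 5 ppm against 1 ppm. The dimmer Chil4 probe set, at 3.13 to 4.02 log2, leaves little signal in which a change could be seen.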
